A study of Homo sapiens with 14 samples.

Results

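MHC class I antigen presentation was followed through 9 genes, HLA-B, HLA-C, HLA-E, B2M, TAP1, TAP2, TAPBP, PSMB8 and PSMB9, of 62757 genes counted in each library. They were matched by Ensembl identifier, by a rule that uses no measured value, but the list was chosen with earlier results of these data known. All 9 passed the filter on low counts in every fit. The 14 libraries fall into 7 groups of 2, and all are cells labelled OVCAR3 or A2780, 2 established human ovarian cancer cell lines. Each line comes as parental cells (labelled WT) and as libraries labelled DDP, taken here as a derivative that resists cisplatin. For OVCAR3 the markers given below did not follow that label. The remaining groups are labelled OVCAR3-DDP and carry a short hairpin RNA: shNC, taken here as the non-targeting control, and sh1 and sh2, both against ADAR1, the RNA-editing enzyme encoded by ADAR. The drug schedule, the number of clones behind each derivative and whether replicates were separate cultures are not stated in the labels, so each p-value reflects only how far these libraries scatter, which may be technical scatter.

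Class I molecules show fragments of a cell's own proteins to CD8+ T cells. A heavy chain, encoded by HLA-B, HLA-C or HLA-E, pairs with the invariant light chain beta-2-microglobulin, encoded by B2M. Peptides are cut by the proteasome, whose catalytic subunits can be exchanged for the inducible subunits encoded by PSMB8 and PSMB9, are pumped into the endoplasmic reticulum by the transporter TAP1-TAP2, and are loaded with the help of tapasin, encoded by TAPBP. Interferon raises most of these genes through IRF1 and the class I transactivator NLRC5, and loss of B2M, TAP or NLRC5 is a known route by which tumours escape T cells.

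Libraries held 20428538 to 49115255 gene counts, and a level is printed in CPM (counts brought to the same total in every library), for both libraries of a group or as mean ± SD with n = 2. Fold changes are log2 values from edgeR's quasi-likelihood test with TMM scaling, each with its standard error (SE), so they differ somewhat from ratios of CPM. Replicates lay furthest apart in parental OVCAR3 (chi-square of 31.5 per gene), sh1 (21.1) and A2780-DDP (18.0), against 3.88 to 5.01 in the other groups. A gene is called higher or lower at a Benjamini-Hochberg adjusted p under 0.05. Markers of OVCAR3 did not follow the labels: KRT7, an epithelial keratin, stood at 1083 CPM in parental OVCAR3 and 958 to 1029 CPM in the hairpin groups, but at 0.246 CPM in the OVCAR3-DDP-labelled libraries. CD44, an adhesion receptor, was at 564 CPM in parental OVCAR3 and 781 to 888 CPM in the hairpin groups, and at 0 in the OVCAR3-DDP-labelled libraries. Parental A2780 lacked both markers too, with 0 counts of KRT7 and 1 of CD44 over its libraries. In these markers the hairpin libraries lay near parental OVCAR3 and not near the libraries whose label they share, so every comparison with the latter is to be read beside this. Leukocyte markers summed to at most 6.56 CPM over 12 genes in any library, with CD3E and MS4A1 at 0 counts in all 14. PAX8, a factor of Müllerian epithelium, reached 4.08 CPM in parental OVCAR3, against 0.0580 CPM in the OVCAR3-DDP-labelled libraries and 0.378 CPM in parental A2780, and WT1 was at 19.0 CPM in the OVCAR3-DDP-labelled libraries and 0 in both parental lines.

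Class I promoters are known for interferon response elements and kappa-B sites, and the promoters of genes that moved together or apart in these data are shown so that they can be compared. Of the 9 genes, 8 (all but HLA-E) matched RefSeq promoters (GRCh38.p14), with 10 start sites. The 200 bases just before the start are given for 6 of them, with capitals for matches on either strand to TTTCNNTT, the core of an interferon response element, and to GGGGATTC or GGGNNTTTC, kappa-B-like sites. Neighbouring matches to TTTCNNTT can share bases.
HLA-B (chr6:31357180-31357379, minus strand): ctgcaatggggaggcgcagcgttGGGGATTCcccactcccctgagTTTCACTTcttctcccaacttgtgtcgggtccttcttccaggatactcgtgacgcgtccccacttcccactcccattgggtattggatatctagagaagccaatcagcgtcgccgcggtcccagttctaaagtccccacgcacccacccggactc
HLA-C (chr6:31272093-31272292, minus strand): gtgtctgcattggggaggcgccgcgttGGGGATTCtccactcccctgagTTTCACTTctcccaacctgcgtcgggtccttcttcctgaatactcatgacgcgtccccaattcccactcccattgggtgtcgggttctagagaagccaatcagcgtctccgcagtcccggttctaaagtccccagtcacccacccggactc
B2M (chr15:44711317-44711516, plus strand): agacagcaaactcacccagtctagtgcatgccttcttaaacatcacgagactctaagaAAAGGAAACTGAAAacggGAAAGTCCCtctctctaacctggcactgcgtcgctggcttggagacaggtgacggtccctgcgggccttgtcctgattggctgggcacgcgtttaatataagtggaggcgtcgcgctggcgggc
TAP1 (chr6:32853705-32853904, minus strand): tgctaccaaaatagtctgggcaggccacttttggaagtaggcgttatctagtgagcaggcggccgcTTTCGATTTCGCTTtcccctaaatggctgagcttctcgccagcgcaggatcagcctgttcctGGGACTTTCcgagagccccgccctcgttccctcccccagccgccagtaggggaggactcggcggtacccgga
TAP2 (chr6:32838740-32838939, minus strand): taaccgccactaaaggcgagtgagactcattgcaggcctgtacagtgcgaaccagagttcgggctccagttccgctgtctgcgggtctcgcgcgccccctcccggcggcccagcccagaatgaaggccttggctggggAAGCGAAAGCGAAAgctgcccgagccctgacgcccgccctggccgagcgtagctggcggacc
TAPBP (chr6:33314079-33314278, minus strand): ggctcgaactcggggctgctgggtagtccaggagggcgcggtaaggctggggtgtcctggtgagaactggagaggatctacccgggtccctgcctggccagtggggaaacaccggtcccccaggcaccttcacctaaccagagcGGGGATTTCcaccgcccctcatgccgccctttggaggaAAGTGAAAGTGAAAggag
In the 250 bases before the start, TTTCNNTT matched in HLA-B, HLA-C, B2M, TAP1, TAP2 and TAPBP, and in 20.3% of all 35116 promoter windows. GGGGATTC matched in HLA-B, 177 bases before the start, and in HLA-C, 173 bases before it, against 0.772% of all windows. GGGNNTTTC matched in B2M, TAP1 and TAPBP and in 4.16% of all windows. The HLA-B and HLA-C windows were 91.9% identical over 246 aligned bases. None of these 3 motifs matched in the windows of PSMB8 or PSMB9. Of the other motifs searched, TTCNNNGAA matched in PSMB8 and TAP1 and in 6.57% of all windows. CCAAT matched in HLA-B, HLA-C, B2M, TAP1 and PSMB9 and in 32.0% of all windows. A match is a description of letters and not a measured site.

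Compared per length of the principal transcript (RPKM), B2M was the most abundant of the 9 in parental OVCAR3 and in all hairpin groups, at 549 ± 23.5 RPKM in parental OVCAR3 and 613 ± 62.2 RPKM in shNC. HLA-C was the most abundant in both A2780 groups, at 511 ± 17.4 RPKM in parental A2780 and 385 ± 21.3 RPKM in A2780-DDP. TAP1 at 20.3 ± 1.05 RPKM and TAP2 at 16.7 ± 1.80 RPKM were close in parental OVCAR3, but per union of all annotated exons they were at 12.5 and 6.54. B2M per summed HLA-B, HLA-C and HLA-E was 1.20 and 1.33 in the parental OVCAR3 libraries, 0.401 and 0.368 in the OVCAR3-DDP-labelled ones and 0.322 to 0.341 over the 4 A2780 libraries. In the 6 hairpin libraries that ratio ran from 4.65 to 7.08. The ratio of light to heavy chain transcripts thus fell into 3 ranges that did not overlap: parental OVCAR3, the hairpin libraries, and all others. Per union of all annotated exons it was 0.579 and 0.634 in parental OVCAR3 and 1.96 to 2.91 in the hairpin libraries. The level of the ratio, and whether it exceeds 1 in parental OVCAR3, thus depends on the transcript length used.

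**Figure D1:**
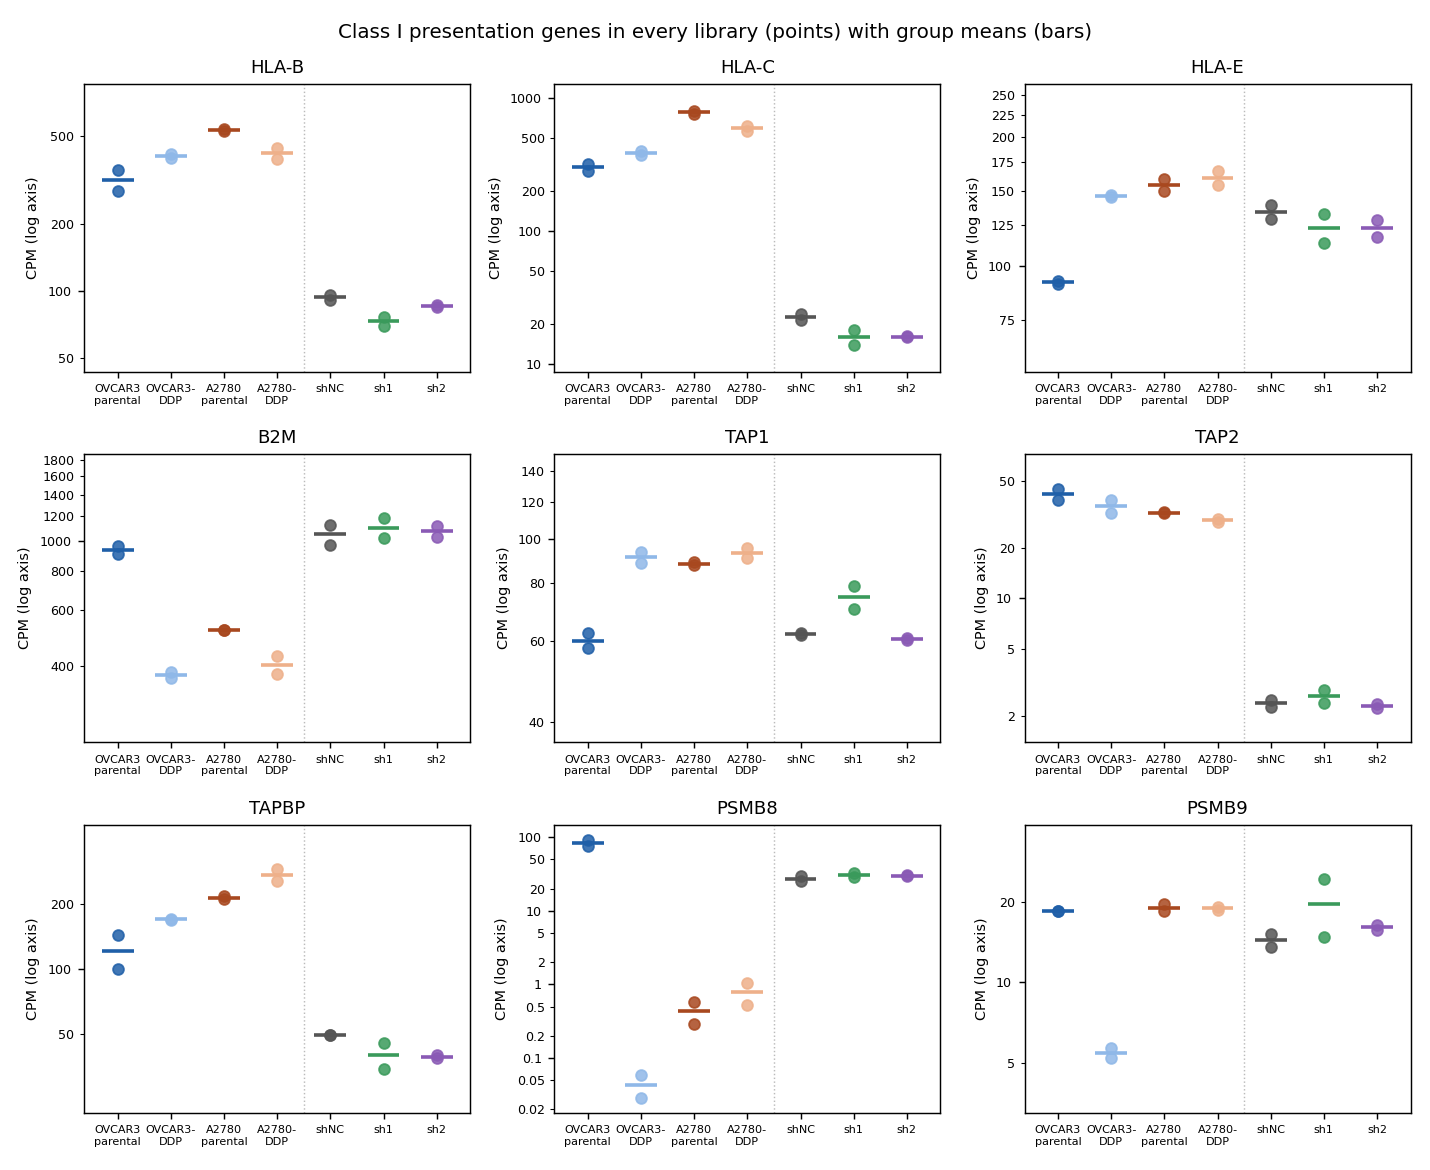
Level of each of the 9 genes in every library, in CPM on a log axis; points are libraries and short bars are group means, and the dotted line divides the untransduced groups from the hairpin groups. PSMB8 ranges from 0.0289 to 92.8 CPM, while HLA-E stays between 91.1 and 166 CPM.

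The spread over the 7 groups differed from gene to gene. HLA-E and TAP1 varied least, with 1.75-fold and 1.55-fold between the highest and the lowest group mean in CPM. B2M spanned 2.94-fold, PSMB9 3.60-fold, TAPBP 6.96-fold and HLA-B 7.24-fold. TAP2 spanned 18.2-fold and HLA-C 49.4-fold, in both cases with the hairpin groups lowest, and without those groups the spans were 1.44-fold and 2.61-fold. PSMB8 spanned 1949-fold. By order of levels, HLA-B and HLA-C were highest in parental A2780 and lower in A2780-DDP, in the OVCAR3-DDP-labelled libraries, in parental OVCAR3 and in the hairpin groups, in that sequence. For HLA-B, A2780-DDP and the OVCAR3-DDP-labelled libraries overlapped. B2M ran nearly the other way, with the 3 hairpin groups on top, overlapping one another, and A2780-DDP and the OVCAR3-DDP-labelled libraries at the bottom, overlapping too.

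The first comparison asked what distinguishes the OVCAR3-DDP-labelled libraries from parental OVCAR3. Of the 9 genes, 2 were higher, HLA-E and TAP1, against 33.4% of all 23031 genes tested, and 4 were lower, B2M, TAP2, PSMB8 and PSMB9, against 35.2%. With more than 2 in 3 genes called, these shares say little about the 9 as a group; their median log2 change was 0.18 against −0.03 over all genes.

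Among the heavy chains, HLA-B (ENSG00000234745.14; GRCh38, GENCODE 29, chromosome 6, 31269491 to 31357188, minus strand), a classical class I chain, was at 351 and 282 CPM in parental OVCAR3 and at 398 and 414 CPM in the OVCAR3-DDP-labelled libraries. These libraries did not overlap, but the log2 difference of 0.18 (SE 0.11) did not pass (edgeR adjusted p = 0.172). HLA-C (ENSG00000204525.18; chromosome 6, 31268749 to 31272130, minus strand), the other classical chain of the list, was at 319.7 and 281 CPM against 376 and 397 CPM, which differ by 0.19 on the log2 scale (SE 0.10; edgeR adjusted p = 0.105). Both were higher in both OVCAR3-DDP-labelled libraries without passing the test. How many of all genes were separated between these groups in this way was not computed. HLA-E (ENSG00000204592.9; chromosome 6, 30489467 to 30494205, plus strand), a nonclassical chain that presents leader peptides of other class I chains to NK-cell receptors, rose from 92.5 and 91.1 CPM to 145 and 146 CPM. Its groups lay far apart relative to their spread, with a log2 change of 0.49 (SE 0.09; edgeR adjusted p = 0.000313). HLA-B and HLA-C coding sequences are 92.5% identical and share 35 annotated exon bases, and HLA-E is 86.8% identical to HLA-B, so reads could have been split between them. All values come from RNA of whole cultures, in which fewer cells of a type and less RNA per cell cannot be told apart.

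B2M (ENSG00000166710.23; chromosome 15, 44711487 to 44718877, plus strand), the light chain shared by every class I molecule, was at 964 and 907 CPM in parental OVCAR3. In the OVCAR3-DDP-labelled libraries it was at 381 and 365 CPM. The fall of 1.50 on the log2 scale (SE 0.09; edgeR adjusted p = 1.09e-08) was many times the spread within either group. B2M lies on another chromosome than the other 8 genes, and no annotated exon of another gene overlaps it.

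In the transporter, TAP1 (ENSG00000168394.13; chromosome 6, 32845209 to 32853978, minus strand) was at 62.3 and 57.9 CPM in parental OVCAR3 and at 88.7 and 93.6 CPM in the OVCAR3-DDP-labelled libraries. The groups were apart, and TAP1 rose by 0.42 on the log2 scale (SE 0.09; edgeR adjusted p = 0.00109). Its partner TAP2 (ENSG00000204267.19; chromosome 6, 32821833 to 32838780, minus strand) was at 38.6 and 45.0 CPM against 38.4 and 32.0 CPM. TAP2 fell by 0.43 (SE 0.11; edgeR adjusted p = 0.00404), although on the CPM scale 1 library of each group nearly met, and the call was lost without the second OVCAR3-DDP library, at a log2 value of −0.30. AL669918.1, on the same strand, shares 32.3% of the annotated TAP2 exon bases. The subunits of the 1 transporter thus moved in opposite directions. TAPBP (ENSG00000231925.14; chromosome 6, 33299694 to 33314387, minus strand), the tapasin that bridges transporter and heavy chain, was at 143 and 99.8 CPM against 169 and 169.9 CPM. Its parental libraries differed most, and the log2 difference of 0.30 (SE 0.14) did not pass (edgeR adjusted p = 0.0730). With upper-quartile scaling or no low-count filter TAPBP, HLA-B and HLA-C all passed as higher, at log2 values of 0.43, 0.31 and 0.31 under the former, and TAPBP also passed with DESeq2 size factors, DESeq2's Wald test and all 14 libraries in 1 fit. Without the first parental library all 3 passed too, TAPBP at 0.60, HLA-B at 0.37 and HLA-C at 0.30.

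The inducible proteasome subunits showed the widest differences. PSMB8 (ENSG00000204264.12; chromosome 6, 32840717 to 32844703, minus strand), which replaces the PSMB5 subunit, had 3329 and 3767 counts in the parental libraries, or 92.8 and 76.7 CPM, and 1 and 2 counts in the OVCAR3-DDP-labelled ones. That is 1921-fold lower in CPM, with a 95% counting interval of 657 to 9315 that covers counting error only (edgeR adjusted p = 1.31e-11). PSMB9 (ENSG00000240065.8; chromosome 6, 32844136 to 32859585, plus strand), which replaces the PSMB6 subunit, was at 18.5 and 18.4 CPM against 5.67 and 5.20 CPM. It fell by 1.94 on the log2 scale (SE 0.13; edgeR adjusted p = 1.94e-08), in both libraries. PSMB8 and PSMB9 are neighbours with 139 shared exon bases on opposite strands, and PSMB8-AS1 covers 20.6% of the PSMB8 exon bases, so with the strand setting unknown a part of their counts could be exchanged. The antisense gene itself was at 27.4 ± 5.53 CPM in parental OVCAR3 and 19.4 ± 0.978 CPM in the OVCAR3-DDP-labelled libraries.

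**Figure D2:**
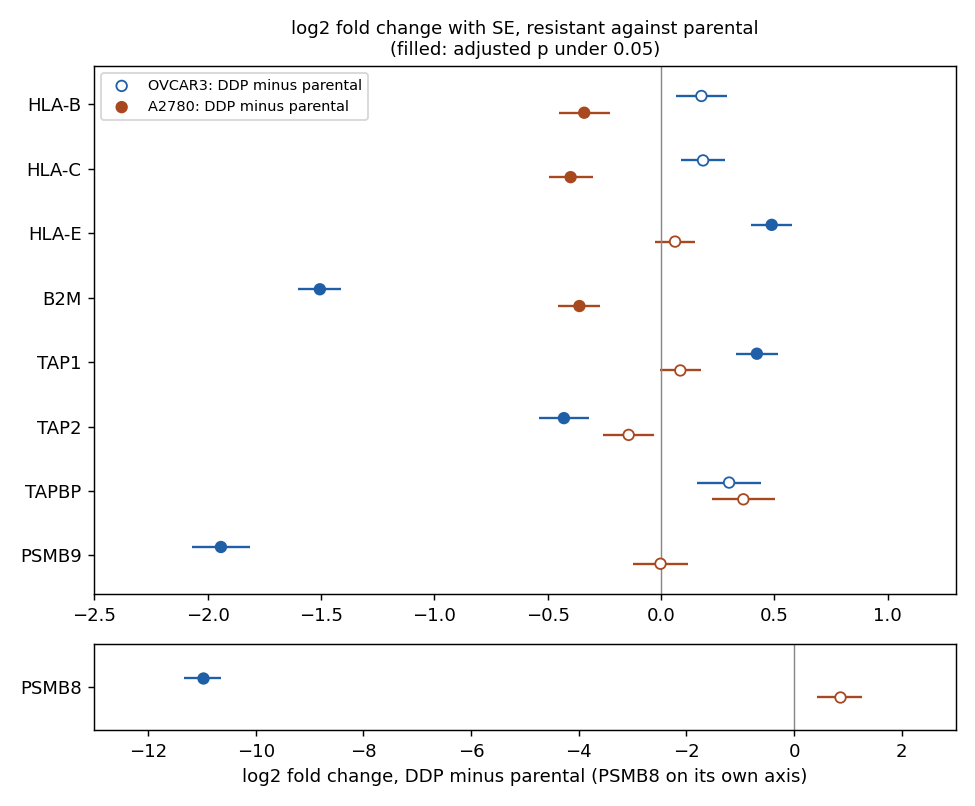
Log2 fold change of each gene, DDP-labelled minus parental libraries, for OVCAR3 (blue) and A2780 (brown) with standard errors. Filled points pass an adjusted p of 0.05, and PSMB8 has its own axis. In OVCAR3 B2M lies at −1.50, PSMB9 at −1.94 and PSMB8 at −10.99, while HLA-E and TAP1 lie to the right of 0.

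The rest of the pathway moved mostly down in the same comparison. Of the 10 genes for peptide trimming and loading, 7 were lower and 2 higher, with a median log2 change of −0.76 against −0.03 for all genes tested. PDIA3, the oxidoreductase of the loading complex, fell from 817 ± 80.8 to 401 ± 12.9 CPM, and CANX, the chaperone that holds new heavy chains, from 924 ± 60.2 to 615 ± 44.8 CPM. Of the 2 aminopeptidases that trim peptides in the endoplasmic reticulum, ERAP1 fell by 1.50 and ERAP2 rose by 2.17 on the log2 scale. All 4 further genes of the inducible proteasome list were lower: PSMB10, the third inducible subunit (fell by 1.61), the PA28 activators PSME1 (by 1.02) and PSME2 (by 0.98), and the assembly factor POMP (by 1.11). But the constitutive core also fell, with 12 of 14 subunits lower and a median of −1.15, among them PSMB5 (−0.98), PSMB6 (−1.18) and PSMB7 (−0.86), the subunits that PSMB8, PSMB9 and PSMB10 replace.

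Set against their constitutive partners per length, the inducible subunits differed in share. PSMB8 made up 32.1% and 29.7% of PSMB8 plus PSMB5 transcripts in parental OVCAR3 and 0.0276% and 0.0516% in the OVCAR3-DDP-labelled libraries. PSMB9 made up 10.4% and 11.5% of PSMB9 plus PSMB6 in the first and 7.10% and 6.41% in the second, a much smaller drop. PSMB10 made up 1.00 ± 0.0454% of PSMB10 plus PSMB7 in the first and 0.597 ± 0.0944% in the second. Per union of all annotated exons the PSMB8 share in parental OVCAR3 was 18.6%, so the level of these shares depends on the transcript length used.

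**Figure D3:**
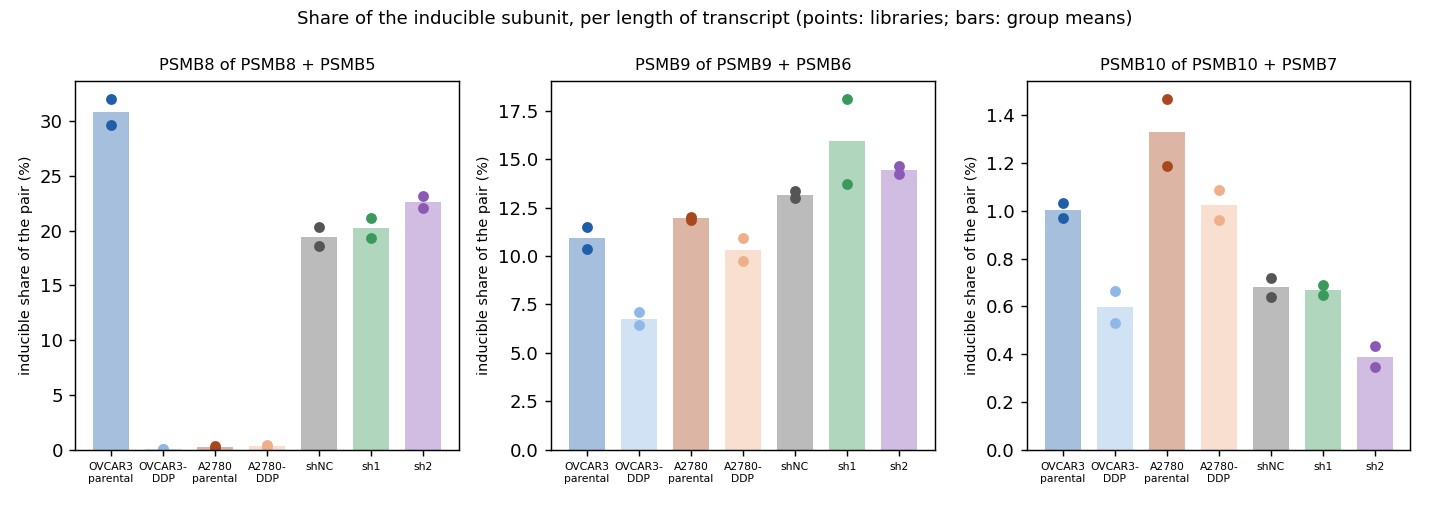
Share of the inducible subunit in each pair of inducible and constitutive proteasome subunit, in percent of their summed RPKM; points are libraries, bars are group means, and each panel has its own axis. The PSMB8 share lies at 18.6% or more in parental OVCAR3 and the hairpin libraries and under 1% in the others.

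Among the factors that drive class I genes, 8 of 15 were lower and 2 higher in the OVCAR3-DDP-labelled libraries. For this and the lists that follow, 35.2% of all genes were lower and 33.4% higher. NLRC5 fell from 42.0 ± 6.27 to 13.2 ± 1.32 CPM (log2 −1.84, SE 0.13) and IRF1 from 42.4 ± 3.43 to 21.0 ± 0.510 CPM (−1.19, SE 0.11), with edgeR adjusted p of 2.71e-08 and 3.27e-07. Of 10 genes of the interferon receptor path, 4 were higher and 2 lower, with SOCS3, a feedback inhibitor, falling by 2.67. Of 9 other class I-like genes tested, 6 were higher and 2 lower. HLA-F rose from 6.05 ± 0.435 to 12.2 ± 0.658 CPM, and the NKG2D ligands ULBP1 and ULBP2 parted, the first at least 224-fold lower (828 counts against 0, taken as 3 counts for the pair of libraries) and the second higher by 4.25 on the log2 scale. Class II genes, which present peptides to CD4+ T cells, were higher in 7 of 10 tested. HLA-DRB1 had 1906 counts in the OVCAR3-DDP-labelled libraries against 1 in parental OVCAR3, a 2347-fold difference with a counting interval of 421 to 92765, while HLA-DRA, its alpha chain, was at 0.0290 CPM or less in every untransduced group. Reads of HLA-DRB1 can be shared with its near-identical copies.

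The second comparison asked the same of A2780. Here 3 of the 9 genes were lower, HLA-B, HLA-C and B2M, against 17.3% of all genes, and the other 6 did not pass, with 18.0% of all genes higher. Their median log2 difference was −0.00 against 0 over all genes. HLA-B was at 522 and 536 CPM in parental A2780 and at 438 and 393 CPM in A2780-DDP, and it fell by 0.34 (SE 0.11; edgeR adjusted p = 0.0313). HLA-C was at 767 and 805 CPM against 615 and 569 CPM and fell by 0.40 (SE 0.10; edgeR adjusted p = 0.00593). B2M was at 520.0 and 521 CPM against 429.7 and 376 CPM and fell by 0.36 (SE 0.09; edgeR adjusted p = 0.00842). In all 3 genes both A2780-DDP libraries lay below both parental ones, as they also did for TAP2, which was not called. The share of all genes separated in this way was not computed. The 3 calls rest on few libraries. All 3 were lost without the second parental library and without the second A2780-DDP library, where HLA-B was at −0.19, HLA-C at −0.28 and B2M at −0.20, and HLA-C alone kept its call without the first parental library. HLA-B also lost its call with DESeq2 size factors, at −0.31 (edgeR adjusted p = 0.0519), and with a block on crossed A2780 replicate numbers, at −0.34 (edgeR adjusted p = 0.0516).

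HLA-E was at 149 and 159.7 CPM in parental A2780 and 166 and 154 CPM in A2780-DDP, which overlap. TAP1 was at 89.0 and 87.5 CPM against 95.3 and 90.8 CPM, and TAP2 at 32.5 and 32.1 CPM against 28.6 and 29.5 CPM. Their log2 differences of 0.09 and −0.14 did not pass. TAPBP was at 210.4 and 217 CPM against 256 and 291 CPM, which differ by 0.36 on the log2 scale (SE 0.14; edgeR adjusted p = 0.0599). This difference passed with DESeq2's Wald test, with its size factors, with no low-count filter, with a replicate block and in a fit of all 14 libraries. PSMB8 was nearly silent in A2780, with 9 and 19 counts in the parental libraries and 36 and 17 in A2780-DDP, or 0.289 to 1.04 CPM, and it passed as higher (1.32) without the second A2780-DDP library. PSMB9 was present in the same cells, at 18.4 and 19.7 CPM against 18.7 and 19.1 CPM, and its log2 difference was −0.00 (SE 0.12).

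In the wider pathway of A2780, CANX fell from 539 ± 12.5 to 199 ± 12.3 CPM (log2 −1.43). Of 10 trimming and loading genes, 5 were lower, against 17.3% of all genes. ERAP1 (0.39) was the 1 higher, against 18.0% of all genes. NLRC5 fell by 2.09 on the log2 scale, from 52.2 ± 2.68 to 12.1 ± 0.833 CPM (SE 0.13, edgeR adjusted p = 4.47e-08). IRF1 rose from 21.1 ± 0.555 to 39.4 ± 0.800 CPM (0.91, SE 0.11). In the OVCAR3-DDP-labelled libraries both NLRC5 and IRF1 were below parental OVCAR3. Those libraries also lacked the OVCAR3 markers KRT7 and CD44, and the part of this in the contrast between lines was not tested. Of the 14 constitutive proteasome subunits, 1 was higher and 13 did not pass.

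The difference between the lines was tested directly, as the OVCAR3 change minus the A2780 change. The OVCAR3 change sets OVCAR3-DDP-labelled against parental libraries, which also differed in the markers KRT7 and CD44. It passed for 7 of the 9 genes: 4 were higher, against 26.9% of all genes, and 3 lower, against 26.9%. PSMB8 differed by log2 −11.84, PSMB9 by −1.94 and B2M by −1.15. HLA-C differed by 0.58, HLA-B by 0.52, HLA-E by 0.43 and TAP1 by 0.34. HLA-B, HLA-E and TAP1 did not pass without the second OVCAR3-DDP or the second parental A2780 library, with values from 0.29 to 0.51. TAP1 lost its call in 6 of the 8 omissions of a single library, also without the second parental OVCAR3 (0.27), the first OVCAR3-DDP (0.38), the first parental A2780 (0.37) or the second A2780-DDP library (0.31), and with no low-count filter (0.38) or a replicate block (0.34). TAP2 at −0.29 (SE 0.16; edgeR adjusted p = 0.153) and TAPBP at −0.06 (SE 0.20; edgeR adjusted p = 0.850) did not pass. Among the regulators the change of IRF1 differed by −2.10, and for NLRC5 the difference of 0.25 (SE 0.18) did not pass (edgeR adjusted p = 0.260).

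The parental lines themselves differed in 8 of the 9 genes. In OVCAR3, 3 were higher than in A2780, against 32.3% of all genes, and 5 were lower, against 33.7%. PSMB8 stood at 84.8 ± 11.4 CPM in OVCAR3 and 0.435 ± 0.207 CPM in A2780 (log2 7.64, SE 0.26), and B2M at 935 ± 40.1 against 520.3 ± 0.491 CPM (0.90, SE 0.09), with edgeR adjusted p of 2.62e-11 and 1.76e-06. TAP2 was also higher, by 0.42 (SE 0.11). HLA-C was lower by log2 −1.34, TAPBP by −0.77, HLA-E by −0.70, HLA-B by −0.69 and TAP1 by −0.51. PSMB9 was at a log2 difference of 0.00 (SE 0.12), at 18.5 and 18.4 CPM in OVCAR3 and 18.4 and 19.7 CPM in A2780, while its neighbour PSMB8 was nearly silent in A2780.

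The hairpins asked whether ADAR1 bears on these genes in cells labelled OVCAR3-DDP. ADAR fell against shNC by 0.71 with sh1 and by 1.99 with sh2 on the log2 scale. With sh1, HLA-B and HLA-C were lower, 2 of 9 against 1.85% of all 19044 genes tested, and none of the 9 were among the 1.96% higher. With sh2, HLA-C and TAPBP were lower, 2 of 9 against 7.04%, while 7.23% of all genes were higher. In the mean of both hairpins, HLA-B, HLA-C and TAPBP were lower, 3 of 9 against 5.98%, with 5.94% of all genes higher.

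HLA-C was at 21.4 and 23.8 CPM with shNC, 17.9 and 13.9 CPM with sh1 and 15.9 and 16.2 CPM with sh2. All 4 ADAR1 hairpin libraries lay below both controls, with a log2 change of −0.59 (SE 0.14; edgeR adjusted p = 0.00929) for their mean, −0.58 for sh1 (edgeR adjusted p = 0.0468) and −0.60 for sh2 (edgeR adjusted p = 0.0170). HLA-B was at 91.1 and 95.9 CPM with shNC, 76.8 and 69.4 CPM with sh1 and 86.1 and 84.7 CPM with sh2. It too was below both controls in all 4 libraries, by −0.33 (SE 0.10; edgeR adjusted p = 0.0380) for the mean and −0.43 (SE 0.12; edgeR adjusted p = 0.0475) for sh1, and the value of −0.24 for sh2 did not pass. TAPBP was at 49.6 and 49.5 CPM with shNC, 45.5 and 34.6 CPM with sh1 and 38.5 and 40.0 CPM with sh2. It was again below both controls throughout, by −0.41 (SE 0.12, edgeR adjusted p = 0.0309) for the mean. The share of all genes that lay below both controls in this way was not computed.

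The other 6 genes did not pass with either hairpin. B2M was at 971 and 1121 CPM with shNC and 1017 to 1177 CPM over the other 4 libraries, HLA-E at 129 and 139 CPM against 114 to 133 CPM. TAP1 was at 62.4 and 61.9 CPM with shNC, 79.0 and 70.3 CPM with sh1 and 60.7 and 60.1 CPM with sh2, so its hairpin libraries lay on opposite sides of the control. PSMB9 was at 13.6 and 15.2 CPM with shNC, but at 24.3 and 14.8 CPM with sh1, where 1 library stood apart, and at 16.4 and 15.7 CPM with sh2. PSMB8 (25.4 to 32.4 CPM) overlapped between all hairpin groups, and TAP2 (2.24 to 2.86 CPM) overlapped between shNC and either other group.

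**Figure D4:**
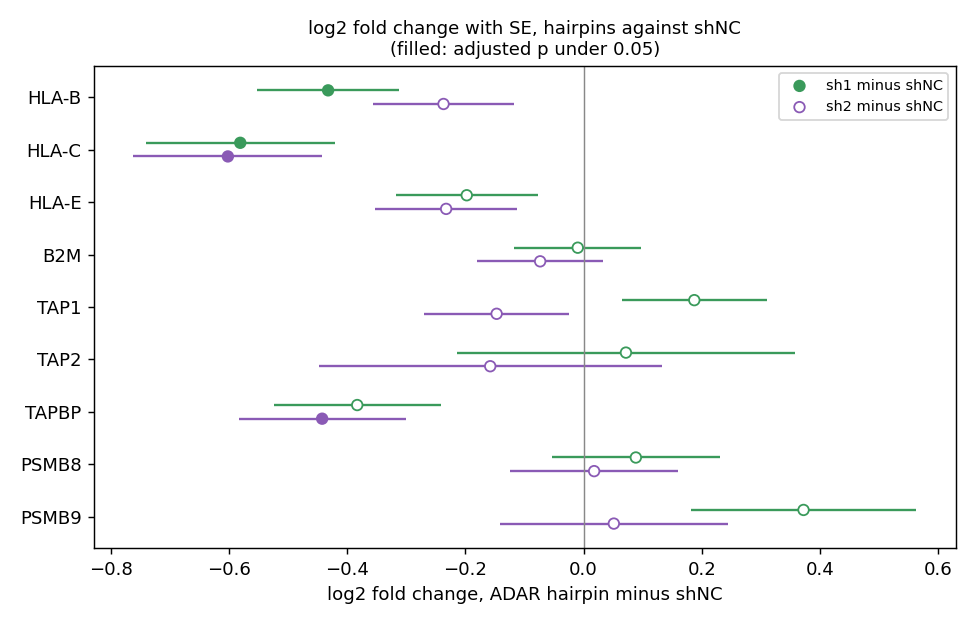
Log2 fold change of each gene with sh1 (green) and sh2 (purple) against shNC, with standard errors; filled points pass an adjusted p of 0.05. HLA-B, HLA-C and TAPBP lie to the left of 0 with both hairpins, from −0.24 to −0.60, and B2M, TAP2 and PSMB8 span 0 within their errors.

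The hairpins were also compared with each other. Between sh2 and sh1, 0 of the 9 genes were called by edgeR and 0 by DESeq2, and 1, TAP1, had an unadjusted p under 0.05; 0.667% of all genes were higher and 1.25% lower. The smallest adjusted p of the 9 was 0.164, for TAP1 at log2 −0.33 (SE 0.12). The calls against shNC are close to the threshold: without any 1 of its 4 libraries the sh2 comparison called 0 of the 9, without either shNC library the sh1 comparison and the mean called 0, and without the first sh1 library the sh1 comparison called 4.

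Among the genes upstream of class I, IRF1, an activator of its promoters, rose from 79.6 ± 5.04 CPM with shNC to 125 ± 1.10 CPM with sh1 (log2 0.57, SE 0.12; edgeR adjusted p = 0.0116) and 148 ± 17.0 CPM with sh2 (0.79, SE 0.12; edgeR adjusted p = 0.000507). NFKB1 rose too, by 0.67 and 0.51. NLRC5 (−0.19 and −0.33) did not pass. CALR, the chaperone of the loading complex, fell by 0.39 and 0.56, ERAP2 rose by 1.18 and 0.95, and ULBP1 rose by 0.93 and 0.90. With both hairpins IRF1 was thus higher and HLA-C lower.

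Between shNC and the untransduced libraries the same genes differed far more than between hairpins. Mitochondrial messenger RNA took 0.726% to 0.947% of gene counts in the hairpin libraries against 2.31% to 3.51% in the untransduced ones, and its part in the differences was not tested. Against parental OVCAR3, HLA-E and B2M were higher in shNC, 2 of 9 against 25.1% of all 24193 genes, and HLA-B, HLA-C, TAP2, TAPBP and PSMB8 were lower, 5 of 9 against 26.5%. TAP2 was at 2.28 and 2.48 CPM in shNC and fell by 3.94 on the log2 scale (SE 0.17; edgeR adjusted p = 2.71e-15), and HLA-C fell by 3.55 (SE 0.13). HLA-B fell by 1.57, PSMB8 by 1.44 and TAPBP by 1.10, HLA-E rose by 0.73 and B2M by 0.35, and TAP1 (0.24) and PSMB9 (−0.17) did not pass. B2M lost its call without the second parental or the second shNC library, at 0.29 and 0.22. TAP1 per TAP2 in RPKM was 1.09 to 2.81 over the 8 untransduced libraries and 21.1 to 24.7 over the 6 hairpin libraries. Against the OVCAR3-DDP-labelled libraries, whose label the hairpin groups share, B2M, PSMB8 and PSMB9 were higher, 3 of 9 against 32.9%, and HLA-B, HLA-C, TAP1, TAP2 and TAPBP lower, 5 of 9 against 36.8%. PSMB8 was 630-fold higher in shNC, with a counting interval of 215 to 3060, B2M rose by 1.78 and TAP2 fell by 3.59. Both comparisons share the shNC libraries. TAP1 against the OVCAR3-DDP-labelled libraries (log2 −0.26, edgeR adjusted p = 0.0367) kept its call in only 1 of 9 alternatives, the replicate block. It lost the call under both other scalings, with no low-count filter, with DESeq2's Wald test and without any single library of either group. The log2 values there ran from −0.31 to −0.19. TAP1 against parental OVCAR3 gained a call under both other scalings, at 0.31 and 0.33, and with DESeq2's Wald test, at 0.31.

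Of the 9 genes, 8 lie between 28 and 34 Mb of chromosome 6, and after these values were seen the other genes there were examined. Of 145 protein-coding genes tested in that stretch, the 8 included, 76 were lower and 21 higher in shNC than in parental OVCAR3, and 25.5% were lower by more than 4-fold, against 3.72% of protein-coding genes elsewhere. Their median log2 change was −0.76 against −0.02 elsewhere. DDX39B, an RNA helicase gene of this stretch, was at 73.4 to 209 CPM in the untransduced libraries and 1.09 to 3.52 CPM in the hairpin libraries. Genes at 10 CPM or more in all untransduced groups were under 1 CPM in all hairpin groups for 4 of 77 in the stretch and 7 of 8188 elsewhere. In the mean of sh1 and sh2 against shNC, the stretch held 18 lower and 4 higher genes of 105, the 8 included. That is 17.1% lower against 7.19% elsewhere, with a median of −0.12 against 0.03. HLA-B, HLA-C and TAPBP are themselves among the 18, and the rest are other lower genes beside them. Reads with more than 1 alignment, which were not counted, made up 4.64% to 4.99% in hairpin libraries and 2.36% to 3.22% in the others, and their part in these differences was not tested. The submitters' processing notes name 1 genome build for all 14 libraries but do not say whether alternate haplotypes of this stretch were included for either set, so a low count here need not be a low transcript level. Which set of libraries a sample belongs to and whether it carries a hairpin cannot be told apart.

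**Figure D5:**
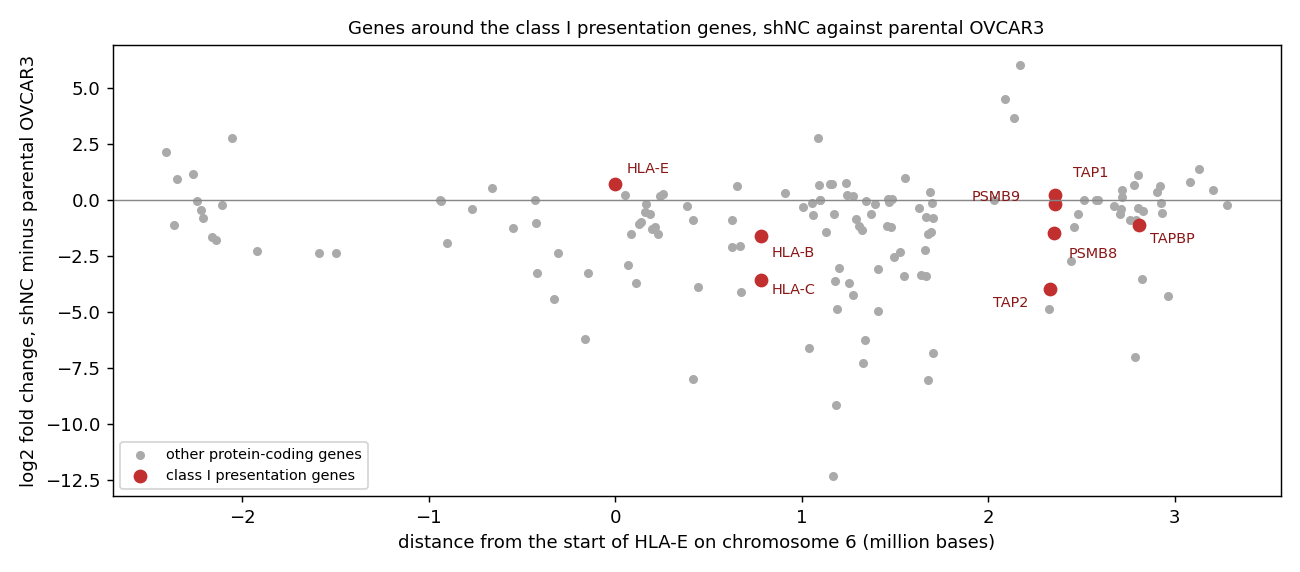
Log2 fold change, shNC minus parental OVCAR3, of protein-coding genes in a stretch of chromosome 6, by distance from the start of HLA-E; red points are the 8 class I presentation genes located there and grey points the others. HLA-C and TAP2 lie at −3.55 and −3.94 among other low genes, while HLA-E, TAP1 and PSMB9 lie near or above 0.

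Across the 7 group means, on a log2 scale of CPM plus 0.5, HLA-B and HLA-C ran together (r = 0.997 in 7 groups, given as a description). B2M ran with PSMB8 (r = 0.942) and against TAP1 (r = −0.894). The mean of the 9 standardized profiles was followed most closely by TAPBP (r = 0.932) and HLA-C (r = 0.927). It was followed least by B2M (r = −0.709) and PSMB8 (r = −0.595), so the 9 genes form no single pattern. Each of the 9 is itself part of that mean, so a part of its r is built in. Among 11681 other protein-coding genes at 10 CPM or more in some group, those most like that mean were MSRB1 (r = 0.998), VCP (r = 0.998), SCAMP3 (r = 0.995), TMEM19 (r = 0.992) and NIPA1 (r = 0.992). The groups share library sets and parental cells, so these values have no p.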

How the data were processed

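The authors deposited 1 table of whole-number read counts per gene for each of 14 libraries. Per the submitters' processing notes, STAR 2.7.8a, HTSeq 2.0.3, SAMtools, FastQC 0.11.9 and GRCh38.p13 were used. Per the labels' protocols, RNA was isolated with Trizol. For the annotation release and the strand setting, the labels give nothing. The 5 summary lines of each file stayed out of library sizes: reads on no gene were 48.7% to 50.0% of all reads. Coordinates and types came from GENCODE 29, which held 58300 of 62757 identifiers.

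Counts were tested with edgeR 4.0.16 (quasi-likelihood, TMM, filterByExpr at 10 counts), with the 8 untransduced libraries in 1 fit of 23031 genes, the 6 hairpin libraries in another of 19044, and all 14 in a fit of 24193 for shNC against untransduced groups. DESeq2 1.42.0, upper-quartile scaling, DESeq2 size factors, no filter, all 14 libraries in 1 fit, a block on replicate number (also with the A2780 numbers crossed, chosen after seeing the data) and omission of single libraries were alternatives. The code was tested on simulated data. RPKM used the length of the principal transcript. Named genes were the 9 members, fixed pathway genes (PSMB5, PSMB6, PSMB7, PSMB10, PSME1, PSME2, NLRC5, IRF1, ERAP1, ERAP2, CALR, CANX, PDIA3, HLA-F, ADAR), up to 4 genes a list with the largest called change at 5 CPM or more, and the 5 genes most like the members' mean profile; of these a part is printed, and 1 gene that the rule names is not reported here. HLA-DRB1, HLA-DRA, DDX39B and the chromosome 6 stretch were added after their values were seen. The members and lists were chosen with earlier results of these data known. R was 4.3.3.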

Additional observations from a re-analysis of the deposited data

Results flagged for a closer look

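The change from parental to DDP-labelled libraries differed between OVCAR3 and A2780, by the interaction contrast of edgeR, in 7 of the 9 genes. For PSMB8 the OVCAR3 change minus the A2780 change was log2 −11.84, with 3 counts over both OVCAR3-DDP-labelled libraries and few counts in A2780 throughout. For PSMB9 it was −1.94 (SE 0.18; adjusted p = 7.71e-07) and for B2M −1.15 (SE 0.13; adjusted p = 7.32e-06). The heavy chains differed the other way, HLA-C by 0.58 (SE 0.14; adjusted p = 0.00273), HLA-B by 0.52 (SE 0.16; adjusted p = 0.0139) and HLA-E by 0.43 (SE 0.13; adjusted p = 0.0124). TAP1 differed by 0.34 (SE 0.13; adjusted p = 0.0423), the value nearest the threshold. In OVCAR3 these contrasts rest on OVCAR3-DDP-labelled libraries in which KRT7 and CD44 were nearly or wholly absent.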

How the results depend on the processing

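Over the alternatives, 812 values for single genes kept direction and side of the threshold, 58 lost their call, 29 gained one and 42 changed sign; the cause was not tested. Upper-quartile scaling moved the median log2 change of all genes from −0.03 to 0.07 in OVCAR3 and from −0.01 to 0.10 in the difference between lines. Between sh2 and sh1 the 365 genes called became 690 with no low-count filter and 624 with DESeq2's Wald test.

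Differences between same-group replicates correlated little from group to group (r from −0.11 to 0.02). The labels do not say what the numbers stand for, so a shared culture or preparation by number was not tested. With a replicate block, sh1 against shNC called 1 of the 9 genes, HLA-C, where 2 were called without it, HLA-B lost its call in the mean of both hairpins, TAP1 lost its call in the difference between lines, and TAPBP gained one in A2780. With the A2780 numbers crossed in the block, 2 of the 9 and 7427 genes were called there, against 3 and 8123.

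PSMB9 in A2780, at −0.00, became 0.0234 with DESeq2 size factors, 0.0200 with upper-quartile scaling, 0.0228 with no filter, 0.0244 with DESeq2's Wald test and 0.0231 with all 14 libraries. TAPBP became 0.0434 in the difference between lines with upper-quartile scaling. PSMB8 with sh2 became −0.00662 with upper-quartile scaling and −0.00189 with all 14 libraries, and TAP1 in the mean of both hairpins became −0.00318 with all 14.

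Without single libraries, genes of the 9 called ranged from 5 to 9 in OVCAR3, with all 9 called without the first parental library, 0 to 3 in A2780, 4 to 7 for the difference between lines, 0 to 4 for sh1, 0 to 0 for sh2, 0 to 4 for the mean of both hairpins and 0 to 2 for sh2 against sh1. All genes called ranged from 89 to 4512 for sh1, 303 to 1386 for sh2, 327 to 6318 for their mean and 58 to 4286 for sh2 against sh1. Omitting the first sh1 library gave the highest sh1 and mean counts, and omitting the second gave the highest for sh2 against sh1. The difference between lines fell to 4 without the second OVCAR3-DDP or the second parental A2780 library.

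Signs changed without 1 library in these log2 values, most of them near 0, but PSMB9 was at 0.37 with sh1 and −0.32 between sh2 and sh1. The ranges that follow run over all alternatives, the scalings, filter, test and block included, and not only over omissions. TAPBP ranged from −0.315 to 0.260 in the difference between lines, and PSMB9 from −0.0229 to 0.105 in A2780 and −0.0733 to 0.0552 between the parental lines. With sh1, B2M ranged from −0.126 to 0.111, TAP2 from −0.0889 to 0.195, PSMB8 from −0.0330 to 0.215 and PSMB9 from −0.0585 to 0.686. With sh2, B2M ranged from −0.189 to 0.050, PSMB8 from −0.103 to 0.147 and PSMB9 from −0.0426 to 0.149. In the mean of both, B2M ranged from −0.157 to 0.0806, TAP1 from −0.0394 to 0.0627, TAP2 from −0.127 to 0.0326, PSMB8 from −0.0677 to 0.181 and PSMB9 from −0.00706 to 0.368. Between sh2 and sh1, HLA-C ranged from −0.191 to 0.190, HLA-E from −0.146 to 0.101, B2M from −0.148 to 0.0402, TAPBP from −0.248 to 0.174, PSMB8 from −0.151 to 0.0288 and PSMB9 from −0.636 to 0.103. Depth limits PSMB8 in A2780 and in the OVCAR3-DDP-labelled libraries, where it had 1 to 36 counts a library, and TAP2 in the hairpin libraries, with 48 to 68.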
